A study of Mus musculus and Meriones unguiculatus with 4 samples.

Results

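The 10 Notch genes described here are the receptor genes Notch1, Notch2 and Notch3, the ligand genes Jag1, Jag2 and Dll1, the fringe genes Lfng and Mfng, and the nuclear genes Hes1 and Rbpj. They were chosen by name, as table rows whose gene symbol matches, ignoring case. Each of the 10 has 1 row among the 25745 gerbil genes and 1 row among the 27632 mouse loci. RNA was sequenced from the region of the enamel knot, the signalling centre of the tooth germ, in germs of the mandible, cut out by laser microdissection from fixed frozen sections and labelled as epithelial cells. The groups are wild-type gerbil embryos at embryonic day 15, with 2 libraries, and wild-type mouse embryos at embryonic day 13, also with 2 libraries. Column names show the species without a sample number, and the libraries are called E21 and E23 for gerbil and PEK and SEK for mouse, after unexplained parts of those names. E21 and E23 do not match the day 15 of the labels. Should they mark different stages or regions, each species has no true replicates and the spread given here includes that difference.

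Notch receptors are cell-surface proteins activated by ligands on a neighbouring cell. Binding leads to cleavage of the receptor, and its intracellular part moves to the nucleus, where it joins the DNA-binding protein Rbpj and switches on targets such as Hes1. Fringe enzymes add a sugar to the receptor and so change how well it responds to Delta-type and Jagged-type ligands. In the mouse tooth germ, Notch receptor genes are expressed in dental epithelium, and loss of Jag2 alters the shape of the molar crown.

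Values are levels, which means the deposited value rescaled so that each library sums to 1000000 over the 13324 genes matched by symbol between the tables. Of these, 10161 reached a mean of 1 or more across the 4 libraries and had a mouse transcript length, and all 10 Notch genes were among them. The authors normalized the tables separately, with gerbil values as TPM and mouse values as FPKM. Differences are gerbil minus mouse on the log2(level + 1) scale after each library's trend along transcript length was removed. They understate the change of low genes and carry a standard error (SE) from 2 libraries per species. For a call of higher in a species, its lower library had to exceed the upper library of the other species 2-fold or more on this corrected scale. The tables were not compared by a significance test. With 2 libraries a species, the smallest two-sided p of an exact permutation test is 0.333. Mouse depth is unknown, and gerbil depth was not analysed here.

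The libraries held markers of dental epithelium, with summed levels over 8 matched genes of 8059 to 9117 in gerbil and 5582 to 8365 in mouse. Shh, which marks the knot, stood at 963 and 1186 in gerbil (E21, E23), against 946 and 609 in mouse (PEK, SEK). Other knot markers went the other way, such as Cdkn1a at 60.0 and 37.1 in gerbil, against 1565 and 1019 in mouse, and Wnt10a at 71.6 and 58.0 in gerbil, against 744 and 618 in mouse. Gerbil E23 stood apart in endothelial genes. The 8 matched endothelial markers summed to 147 in E23 and 8.14 in E21, where 2 of the 8 were listed at 0, and to 62.0 in mouse SEK and 13.1 in PEK. The 12 dental mesenchyme markers summed to 2700 in gerbil E23 and 1472 in E21, and to 1358 in mouse SEK and 1025 in PEK. Collagen genes held most of the gerbil sums. Col3a1 was at 448 and 888 in gerbil (E21, E23), against 42.4 and 114 in mouse (PEK, SEK). Msx1 went the other way, at 37.6 and 32.3 in gerbil, against 270 and 283 in mouse. Of the 12, 2 were called higher in mouse and 0 higher in gerbil, beside 14.7% and 13.3% of all measured genes. The median corrected difference of the 12 was -0.48. The 7 mural cell markers summed to 236 in gerbil E23 and 145 in E21, and to 49.7 in mouse SEK and 91.1 in PEK. The 7 knot markers, Shh included, summed to 1547 and 1562 in gerbil (E21, E23), against 4261 and 2549 in mouse (PEK, SEK). Of these 7, 3 were called higher in mouse and 0 higher in gerbil, beside the same 14.7% and 13.3% of all measured genes. The median corrected difference of the 7 was -2.37. The 7 matched skeletal muscle markers summed to 14.2 and 23.6 in gerbil, against 150 and 426 in mouse, and the part of these in the Notch gene differences between the species was not tested. In such bulk samples, fewer cells of a type and less RNA per cell cannot be told apart.

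Of the 10 Notch genes, Notch2 and Rbpj were called higher in gerbil, Mfng was called higher in mouse, and the other 7 were not called. The same rule called 13.3% of all measured genes higher in gerbil and 14.7% higher in mouse, 28.0% in all, so the count of calls among the Notch genes is near this background. The median difference of the 10 genes was -0.11, beside -0.02 over all measured genes. The make-up within each group of genes differed in the printed levels. Rbpj, Notch2 and Jag1 were among the 4 most abundant of the 10 genes in gerbil and ranked 7, 9 and 8 in mouse, where Hes1, Lfng and Jag2 came first.

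**Figure D1:**
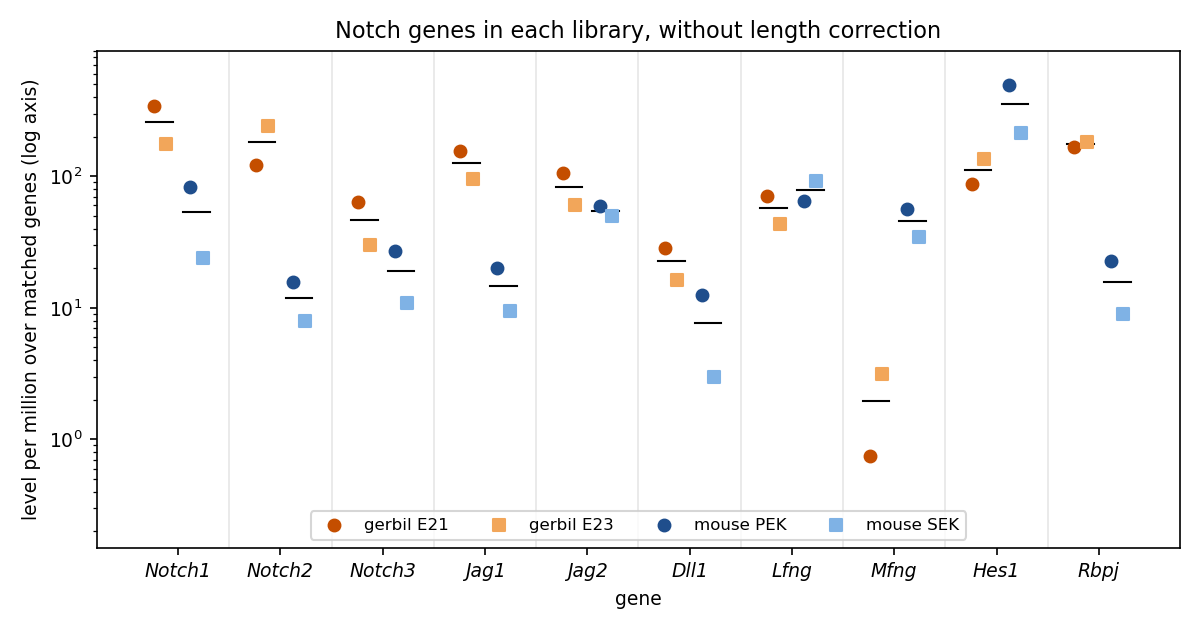
Level of each Notch gene in each library (log axis, rescaled to 1000000 over the matched genes, without length correction), with gerbil E21 and E23 left of mouse PEK and SEK and a black line at the mean of each species. Rbpj sits at 166 and 184 in gerbil, against 22.6 and 8.96 in mouse, while Mfng sits at 0.754 and 3.14 in gerbil, against 56.5 and 34.7 in mouse.

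The 3 receptor transcripts are long and the Mfng, Hes1 and Lfng transcripts are short, and the difference between the species moved with transcript length over all genes. Without the correction, the gerbil minus mouse difference had a median of -1.80 in the shortest 1017 genes and 1.43 in the longest 1016. Notch2 (10500 nt), Notch1 (9488 nt) and Notch3 (8016 nt) lay among those longest genes, while Hes1 (1468 nt) and Mfng (1865 nt) were near the short end. The correction took 1.61 from the Notch2 difference, 1.58 from that of Notch1 and 1.36 from that of Notch3. It moved Hes1 the other way, to -0.69 with the correction and -2.20 without it. Without it 3 of the 10 genes (Notch2, Jag1 and Rbpj) were called higher in gerbil and 2 (Mfng and Hes1) higher in mouse, beside 18.4% and 19.4% of all measured genes, or 37.9% in all. Before correction, the levels of 7 of the 10 genes lay higher in gerbil without overlap, those of 2 lay higher in mouse without overlap, and Lfng overlapped. Over all measured genes, 52.5% lay higher in gerbil without overlap and 26.2% higher in mouse. After correction, 5 of the 10 genes did not overlap, against 74.2% of all measured genes.

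**Figure D2:**
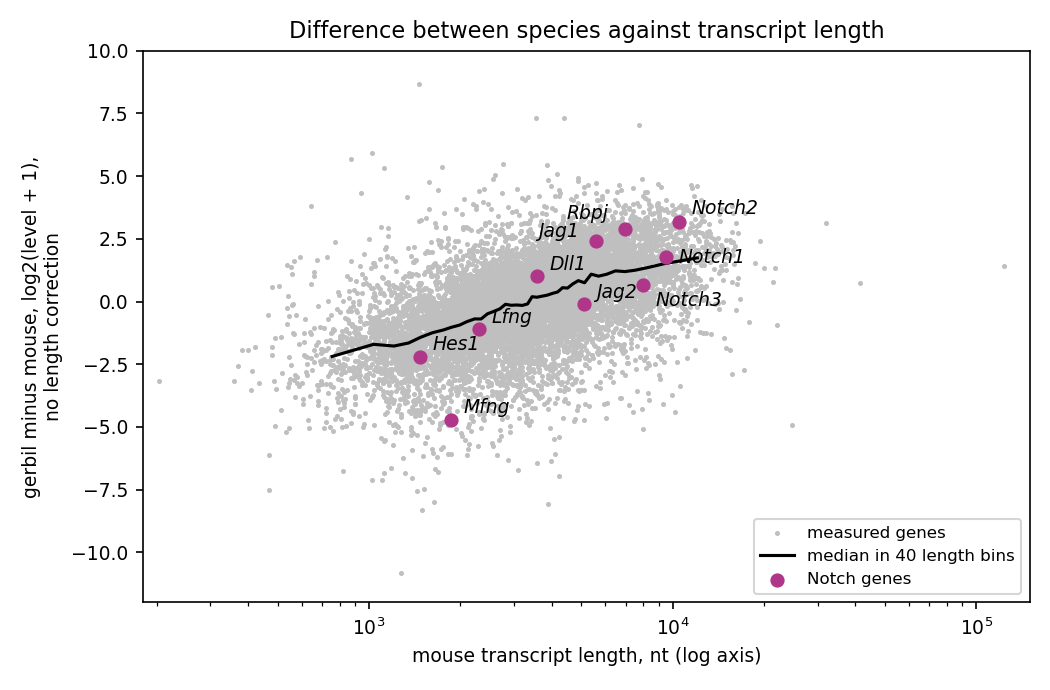
Gerbil minus mouse difference in log2(level + 1) before length correction against mouse transcript length (log axis), for all measured genes (grey), with the median in 40 length bins (black line) and the 10 Notch genes (coloured). The median rises with length, and Notch1 at 1.79 lies near it, while Notch2 at 3.17 and Rbpj at 2.89 lie above it and Mfng at -4.71 lies below.

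Among the receptor genes, Notch2 alone was called, and Notch1 was the most abundant in 3 of the 4 libraries. Notch2 was at 121 and 243 in gerbil (E21, E23), against 15.9 and 8.01 in mouse (PEK, SEK). Both gerbil libraries were above both mouse libraries, and E23 was the highest. The corrected difference was 1.56 ± 0.53 (SE), a 2.95-fold difference, and the nearest libraries lay 1.00 apart on the log2 scale, at the edge of the criterion. The call ended with a pseudocount of 0.1 (1.49). Notch2 held 22.97% and 54.3% of the summed receptor level in gerbil (E21, E23), against 12.6% and 18.6% in mouse (PEK, SEK). The endothelial markers were also highest in gerbil E23, and their part in the Notch2 level was not tested. Without E23 the corrected difference of Notch2 was 1.01. The call rests on E21, the lower gerbil library, so leaving out E23 could hardly change it.

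Notch1 was at 343 and 174 in gerbil (E21, E23), against 82.7 and 24.1 in mouse (PEK, SEK). The levels did not overlap, but the difference was within the length trend, at 0.21 ± 0.65 after correction and 1.79 ± 0.91 before it. Notch3 was at 63.7 and 30.1 in gerbil, against 26.9 and 10.9 in mouse, so that gerbil E23 and mouse PEK were close. Its difference was -0.69 ± 0.53 after correction and 0.67 ± 0.73 before it, and its sign thus depended on the correction. Notch3 is known as a receptor gene of mural cells. The summed mural markers were higher in gerbil E23 than in E21 while Notch3 was lower in E23, and both were lower in mouse SEK than in PEK. Single mural markers went both ways in mouse, with Pdgfrb at 49.7 in PEK and 6.04 in SEK, and Kcnj8 at 6.33 and 14.3. The part of mural cells in the Notch3 level was not tested.

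Of the ligand genes, Jag1 came nearest to a call, and the sign of the Jag2 difference depended on the scale. Jag1, which encodes a Jagged-type ligand, was at 155 and 95.9 in gerbil (E21, E23), against 20.03 and 9.40 in mouse (PEK, SEK). All gerbil values were above all mouse values. The corrected difference was 1.36 ± 0.39, and the nearest libraries lay 0.82 apart, just under the criterion of 1. Jag1 was called higher in gerbil before length correction (2.42), with no filter on low values (1.76), with a minimum of 10 in each species (1.63), without gerbil E23 (1.72) and without mouse PEK (1.56). With neither centring nor correction it was called too (3.06), and it was not called in the other 6 of 12 alternatives, among them GC also removed (1.04).

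Jag2, the other Jagged-type ligand gene, was at 106 and 60.2 in gerbil (E21, E23), against 59.9 and 49.7 in mouse (PEK, SEK). Gerbil E23 and mouse PEK were nearly equal. The corrected difference was -0.85 ± 0.42, before correction it was -0.09 ± 0.39, and Jag2 was called higher in mouse without gerbil E21 (-1.28). It was positive with GC also removed (0.17) and with neither centring nor correction (0.54). Dll1, a Delta-type ligand gene, was the lowest ligand in every library, at 28.7 and 16.4 in gerbil, against 12.4 and 3.0 in mouse. Its corrected difference was 0.83 ± 0.78, and it was called higher in gerbil without mouse PEK (1.56).

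The mix of ligands therefore differed between the species on the printed levels. Jag1 made up 53.6% and 55.6% of the summed ligand level in gerbil (E21, E23), against 21.7% and 15.1% in mouse (PEK, SEK). Jag2 made up 36.5% and 34.9% in gerbil, against 64.8% and 80.0% in mouse. The Jag2 to Jag1 ratio within a library was 0.681 and 0.628 in gerbil, against 2.99 and 5.29 in mouse, and the nearest libraries were 4.39-fold apart. A ratio within a library does not depend on the scale between the tables, and the transcripts are of similar length (5106 and 5612 nt). On the log2 scale the gerbil minus mouse difference of this ratio was -2.60, and -2.20 after length correction. It was -0.87 when a trend along GC content was removed too, with the nearest libraries 0.26 apart. Jag2 and Jag1 differ in GC content, at 61.9% and 48.8%.

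The fringe gene Mfng, whose product is one of the enzymes that modify the receptor, showed the largest difference of the 10. It was at 0.754 and 3.14 in gerbil (E21, E23), from deposited values of 0.1 and 0.37 TPM, against 56.5 and 34.7 in mouse (PEK, SEK). Every mouse value was over 10 times every gerbil value. The corrected difference was -3.71 ± 0.75, or 13.1-fold higher in mouse, and Mfng was called in each of the 7 alternatives that kept every library and in which it was measured. Its gerbil levels are low and rest on few decimals of the deposited values. Lfng, which encodes another of these enzymes, was at 71.4 and 43.3 in gerbil, against 65.4 and 91.9 in mouse. The Lfng libraries of the species overlapped, and the difference was -0.43 ± 0.40, or 0.11 with GC also removed. Lfng supplied 99.0% and 93.2% of the summed level of Lfng and Mfng in gerbil, against 53.6% and 72.6% in mouse. That sum leaves out the fringe gene Rfng, at 36.4 and 31.5 in gerbil, against 81.3 and 99.0 in mouse. The Lfng to Mfng ratio was 94.7 and 13.8 in gerbil (E21, E23), against 1.16 and 2.65 in mouse (PEK, SEK).

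Of the nuclear genes, Rbpj was called higher in gerbil and Hes1 met neither criterion. Rbpj, which encodes the DNA-binding partner of the cleaved receptor, was at 166 and 184 in gerbil (E21, E23), against 22.6 and 8.96 in mouse (PEK, SEK). The gerbil libraries were close to each other and far above the mouse libraries. The corrected difference was 1.72 ± 0.30, a 3.29-fold difference, and Rbpj was called higher in gerbil in all 8 alternatives that kept every library (1.44 to 3.52). The mouse annotation holds 2 processed pseudogenes of Rbpj. How reads shared with such copies were counted is not stated in the labels, so its level is uncertain to that extent.

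Hes1, a transcriptional repressor gene and a target of Notch signalling, was at 88.0 and 134 in gerbil (E21, E23), against 492 and 213 in mouse (PEK, SEK). Both mouse libraries were above both gerbil libraries in level. The corrected difference was -0.69 ± 0.85, with overlap. It was 0.07 without mouse PEK, and -1.50 and called higher in mouse without SEK. It was -2.20 ± 0.60 before length correction, which is a call of higher in mouse. The Hes1 to Rbpj ratio was 0.529 and 0.731 in gerbil, against 21.8 and 23.7 in mouse, the widest gap of the 6 ratios before correction. These transcripts differ in length (1468 and 6947 nt), and after length correction the ratio's gerbil minus mouse log2 difference was -2.40 in place of -5.19. The species still did not overlap, with corrected log2 ratios of 0.53 and 0.81 in gerbil, against 3.60 and 2.54 in mouse. The nearest libraries were then 1.74 apart, no longer the widest gap, beside 1.79 for Jag2 to Jag1. With GC also removed they were 1.34 apart, beside 1.72 for Lfng to Mfng.

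**Figure D3:**
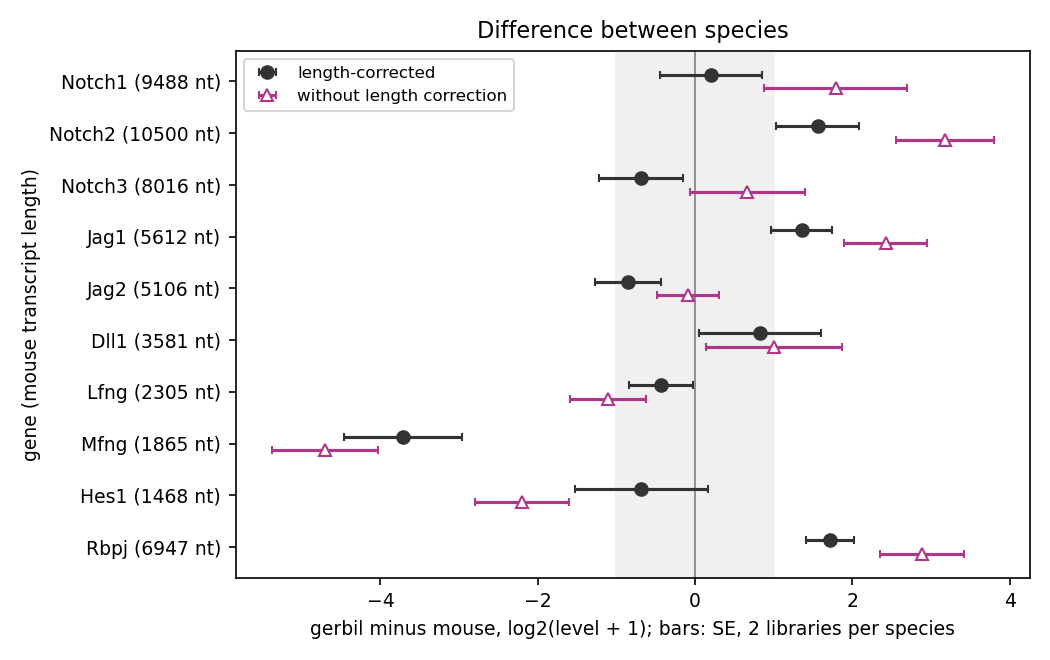
Gerbil minus mouse difference of each Notch gene in log2(level + 1), after length correction (filled circles) and without it (open triangles), with SE bars from 2 libraries per species. After correction Notch2, Jag1 and Rbpj lie beyond the grey band of differences up to 2-fold on the gerbil side and Mfng on the mouse side, at -3.71.

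The other ratios were those of the receptors and of Dll1 to Jag1. Notch1 to Notch2 was 2.83 and 0.718 in gerbil (E21, E23), against 5.21 and 3.01 in mouse (PEK, SEK), nearly touching, and it overlapped after length correction. Notch3 to Notch2 was 0.526 and 0.124 in gerbil, against 1.70 and 1.36 in mouse. Dll1 to Jag1 was 0.185 and 0.171 in gerbil, against 0.621 and 0.319 in mouse, and after correction its difference was -0.53. On the log2(level + 1) scale without correction, 5 of the 6 did not overlap, beside 75.9% of all pairs of measured genes, and 5 were 2-fold or more apart, beside 47.5%. After length correction, 5 of the 6 ratios did not overlap between the species, and 4 were 2-fold or more apart. Among all pairs of measured genes, 72.3% of ratios did not overlap and 39.2% were 2-fold or more apart on that scale, so such separation was common. With GC content removed too, 4 of the 6 did not overlap, against 71.7% of all pairs. On that scale 2 of the 6 were 2-fold or more apart, those of Lfng to Mfng and Hes1 to Rbpj, against 37.6% of all pairs.

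**Figure D4:**
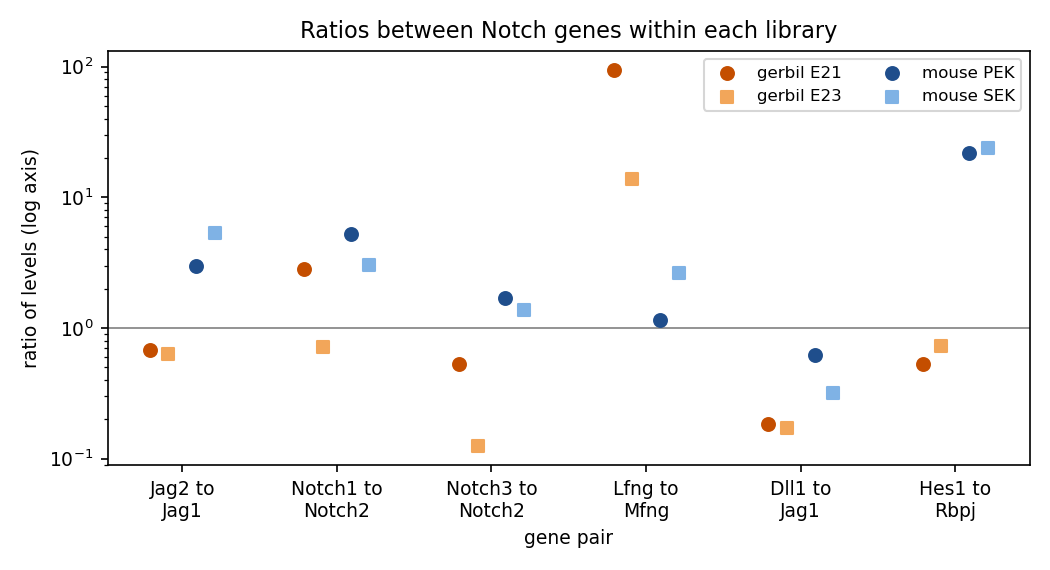
Ratio of levels between 2 Notch genes within each library (log axis, without length correction), with gerbil E21 and E23 left of mouse PEK and SEK for each pair. The Jag2 to Jag1 ratio lies below 1 in gerbil and above 1 in mouse, and the Hes1 to Rbpj ratio is 0.529 and 0.731 in gerbil, against 21.8 and 23.7 in mouse.

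Upstream sequences of 3 genes are shown, Notch2 and Rbpj because they were called higher in gerbil and Lfng because it alone of the 8 Notch genes in the RefSeq promoter table held GTGGGAA, the site Rbpj is known to bind. They are the 250 bases before the first listed start in mouse, which for Rbpj lies inside its locus (GRCm38.p6, from RefSeq), and gerbil sequence was not used here. Of the windows searched but not shown, those of Notch1, Dll1 and Jag2 also lie inside their loci. The windows of Jag1, Notch2 and Lfng reach partly into theirs. Capitals mark TGGGAA, the core of the Rbpj site, or its reverse complement TTCCCA.
Notch2, chr3:98013288-98013537, plus strand: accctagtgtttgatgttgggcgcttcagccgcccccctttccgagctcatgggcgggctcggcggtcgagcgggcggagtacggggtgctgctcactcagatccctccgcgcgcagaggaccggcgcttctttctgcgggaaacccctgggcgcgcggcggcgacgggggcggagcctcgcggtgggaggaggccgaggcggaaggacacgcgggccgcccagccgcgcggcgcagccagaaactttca
Rbpj, chr5:53590096-53590345, plus strand: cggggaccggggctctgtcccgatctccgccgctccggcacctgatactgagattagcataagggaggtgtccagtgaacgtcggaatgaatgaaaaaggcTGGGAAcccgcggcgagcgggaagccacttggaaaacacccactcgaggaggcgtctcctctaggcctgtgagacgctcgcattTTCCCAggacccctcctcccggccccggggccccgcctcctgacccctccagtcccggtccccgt
Lfng, chr5:140607091-140607340, plus strand: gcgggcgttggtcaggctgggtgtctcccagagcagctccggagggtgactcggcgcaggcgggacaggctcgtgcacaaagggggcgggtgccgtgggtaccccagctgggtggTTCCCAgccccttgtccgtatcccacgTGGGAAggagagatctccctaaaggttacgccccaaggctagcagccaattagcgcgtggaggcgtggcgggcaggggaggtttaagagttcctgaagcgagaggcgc
TGGGAA was searched on both strands, and it occurred 2 times each in the Rbpj and Lfng windows and in none of the other 6, beside 21.5% of 27025 promoters of the same length. In Rbpj the matches began 149 and 65 bases before the start, and in Lfng 135 and 108 bases before it. The longer GTGGGAA, which includes TGGGAA, was found in the Lfng window and in 5.41% of all promoters. GGGCGG, the GC box, occurred 5 times each in the Notch2, Notch1 and Jag2 windows, 4 times in that of Notch3 and 1 time in that of Lfng. The Jag1, Rbpj and Dll1 windows held none. The Notch2 window was 72.0% G and C and that of Jag2 was 87.2%. At least 1 GC box was held by 32.9% of all promoters. These matches describe the letters of the mouse windows and no binding was measured.

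In GRCm38 coordinates of the mouse table, the Notch2 locus (ENSMUSG00000027878) covers chr3:98013527-98150671 on the plus strand, the Rbpj locus (ENSMUSG00000039191) covers chr5:53466152-53657362 on the plus strand and the Mfng locus (ENSMUSG00000018169) covers chr15:78755882-78773475 on the minus strand. The Jag1 locus (ENSMUSG00000027276) covers chr2:137081083-137116644 and the Jag2 locus (ENSMUSG00000002799) chr12:112907801-112929755, both on the minus strand. All 5 are annotated as protein-coding. In the GENCODE annotation, 4 of the 10 loci (Notch1, Notch3, Dll1 and Rbpj) overlap a gene on the opposite strand. Whether counting used the strand is not stated in the labels, so mouse reads in a stretch shared by both genes might not be told apart. Whether the exons overlap was not examined.

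Within a species, the libraries differed 2-fold or more in a few Notch genes on the corrected log2 scale. Each value is from 1 library against 1, with no test. In gerbil, Notch2 was 1.06 higher and Mfng 1.23 higher in E23 than in E21 on the corrected log2 scale, and none of the other 8 genes differed by 2-fold. Over all measured genes, 6.03% were 2-fold or more higher in E23 and 3.68% lower. Notch1 (-0.92), Notch3 (-0.95), all 3 ligands (-0.77 to -0.67) and Lfng (-0.70) were lower in E23, which leaves Hes1 (0.54) and Rbpj (0.26) on the side of E23. The median of the 10 genes was -0.68, beside -0.01 over all measured genes. By level, Notch3 was also more than 2-fold lower in E23 (63.7 in E21 and 30.1 in E23).

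In mouse, Dll1 (-1.37) and Hes1 (-1.60) were 2-fold or more lower in SEK than in PEK on the corrected log2 scale. So were 8.42% of all measured genes, while 7.44% were 2-fold or more higher. By level, Notch1 (82.7 in PEK, 24.1 in SEK), Notch3 (26.9, 10.9), Jag1 (20.03, 9.40) and Rbpj (22.6, 8.96) were more than 2-fold lower in SEK too. The share of all genes by level was not computed. Hes1 was at 213 in SEK and 492 in PEK and led the 10 genes in both libraries. Lfng (0.41) was higher in SEK also by level, while Jag2 (0.31) was higher in SEK after length correction but lower by level (49.7 in SEK and 59.9 in PEK). The median of the 10 was -0.51, beside -0.03 over all measured genes. The knot markers also differed between these libraries, with summed levels over 7 genes of 2549 in SEK and 4261 in PEK, and their part in the Hes1 and Dll1 differences was not tested.

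By level within a species, Notch1 (259 ± 119, SD, n = 2), Notch2 (182 ± 86.0) and Rbpj (175 ± 12.3) led in gerbil, each overlapping with the next, and Rbpj was separate from Jag1 below it. Jag1, Hes1, Jag2, Lfng and Notch3 followed, each overlapping with the next, then Dll1 (22.6 ± 8.71) and Mfng (1.95 ± 1.69), each separate from the gene before it. In mouse, Hes1 (352 ± 198) and Lfng (78.7 ± 18.8) were each separate from the gene after them. Jag2 (54.8 ± 7.18), Notch1 (53.4 ± 41.4) and Mfng (45.6 ± 15.4) overlapped. Notch3, Rbpj, Jag1, Notch2 and Dll1 formed the low end, from 18.9 ± 11.3 to 7.71 ± 6.67, each overlapping with the next.

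The genes whose corrected pattern over the 4 libraries was nearest to each called gene were found by Euclidean distance after centring on the gene mean. For Rbpj they were Noc3l (distance 0.02 on the log2 scale), Tmem106a (0.08) and Jak2 (0.10). For Notch2 they were Atf7ip2 (0.12), Dst (0.19) and Npy1r (0.22), and for Mfng they were Egr1 (0.15), Inhba (0.32) and Frat2 (0.38). With 4 libraries, such likeness is a description only.

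Of 61 other listed symbols of the Notch pathway, among which Neurl1 and Neurl1a name the same gene, 47 were measured in both species. Of these 47, 2 were called higher in gerbil (4.25%, beside 13.3% of all measured genes) and 8 higher in mouse (17.0%, beside 14.7%), while 37 met neither criterion. The median difference was -0.09. Without the length correction, 9 were called higher in gerbil (19.1%, beside 18.4% of all measured genes) and 5 higher in mouse (10.6%, beside 19.4%). The gerbil share was then near the background, and the balance of the calls depended on the correction.

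Nrarp, which encodes a feedback inhibitor induced by Notch, was called higher in gerbil. It was at 63.6 and 41.7 in gerbil (E21, E23), against 11.8 and 15.1 in mouse (PEK, SEK) (1.59 ± 0.33), but it was not called without the length correction (1.24). Hes6, a Hes family gene that opposes Hes1, was at 146 and 104 in gerbil, against 658 and 1422 in mouse (-2.00 ± 0.46), and its call ended with GC also removed (-1.02). The remaining 4 measured genes listed with the targets, Hes5 (-0.09 ± 1.25), Hey1 (-1.08 ± 0.42), Hey2 (1.68 ± 0.72) and Heyl (0.94 ± 1.23), were not called. Genes of this list thus stood on both sides, and the 1 call on the mouse side was that of Hes6.

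Among the nuclear partners, 3 of 15 were called after length correction, all higher in mouse, a share near the 14.7% of all measured genes. The 3 encode corepressors, while Tle3 (-0.10 ± 0.30), Tle4 (0.20 ± 0.75) and Spen (0.19 ± 0.22), which encode corepressors too, were not called. Tle2, a Groucho-type corepressor gene, was at 5.96 and 6.71 in gerbil (E21, E23), against 44.3 and 38.1 in mouse (PEK, SEK) (-3.04 ± 0.13, and -3.16 without the length correction). Ncor1 (-2.05 ± 0.11) and Ctbp1 (-1.71 ± 0.40) were called too. Without the length correction both calls ended, at -0.42 for Ncor1 and -1.35 for Ctbp1. With neither centring nor correction Ncor1 changed sign, to 0.21. The coactivator genes Maml1 (1.49 ± 0.42), Ep300 (0.94 ± 0.43) and Crebbp (-0.59 ± 0.47) were not called. Tle1 (-0.93 ± 0.22) and Kdm1a (0.46 ± 0.24), among the most abundant pathway genes, were not called either. Without the length correction, 3 of the 15 were called higher in gerbil, Maml1 (2.57), Ep300 (2.53) and Spen (1.85). Only Tle2 was then called higher in mouse, so the side of the calls depended on the correction.

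Genes listed for ligand ubiquitination or receptor turnover went both ways. Mib1, whose product ubiquitinates ligands and so allows them to signal, was at 251 and 237 in gerbil (E21, E23), against 31.9 and 17.3 in mouse (PEK, SEK). Its corrected difference was 1.08 ± 0.01, just past the criterion, and the call ended with a pseudocount of 0.1 (0.95) and with GC also removed (0.83). Neurl1a, which encodes another such ligase, was called higher in mouse (-2.06 ± 0.09), but not without the length correction (-0.85). Dtx1 (-2.17 ± 0.62) was called higher in mouse at levels of 3.65 or less and was listed at 0 in gerbil E23. Its call ended with no filter on low values (-1.83), without the length correction (-1.80), with neither centring nor correction (-1.17) and with GC also removed (-1.02). Dtx3 (-1.04 ± 0.55), at 172 and 129 in gerbil, against 430 and 225 in mouse, was not called.

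Rfng, the remaining fringe gene, was at 36.4 and 31.5 in gerbil (E21, E23), against 81.3 and 99.0 in mouse (PEK, SEK). It was called higher in mouse (-1.26 ± 0.14), and the call ended with GC also removed (-0.68). None of the 6 measured genes of receptor cleavage was called. Psenen, a subunit of gamma-secretase and the most abundant of them by the mean over all 4 libraries though not in gerbil, was at 133 and 168 in gerbil, against 556 and 529 in mouse, a corrected difference of -0.44 ± 0.22 for this short transcript (823 nt) and -2.49 without the correction. Notch4, a receptor gene of endothelium, was at 5.81 and 4.67 in gerbil (E21, E23), against 7.62 and 18.4 in mouse (PEK, SEK). It was called higher in mouse (-2.95 ± 0.93), although not without the length correction (-1.69). The endothelial markers were highest in gerbil E23, where Notch4 was lowest, while in mouse both were higher in SEK than in PEK. The part of endothelial cells in the Notch4 level was not tested.

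**Figure D5:**
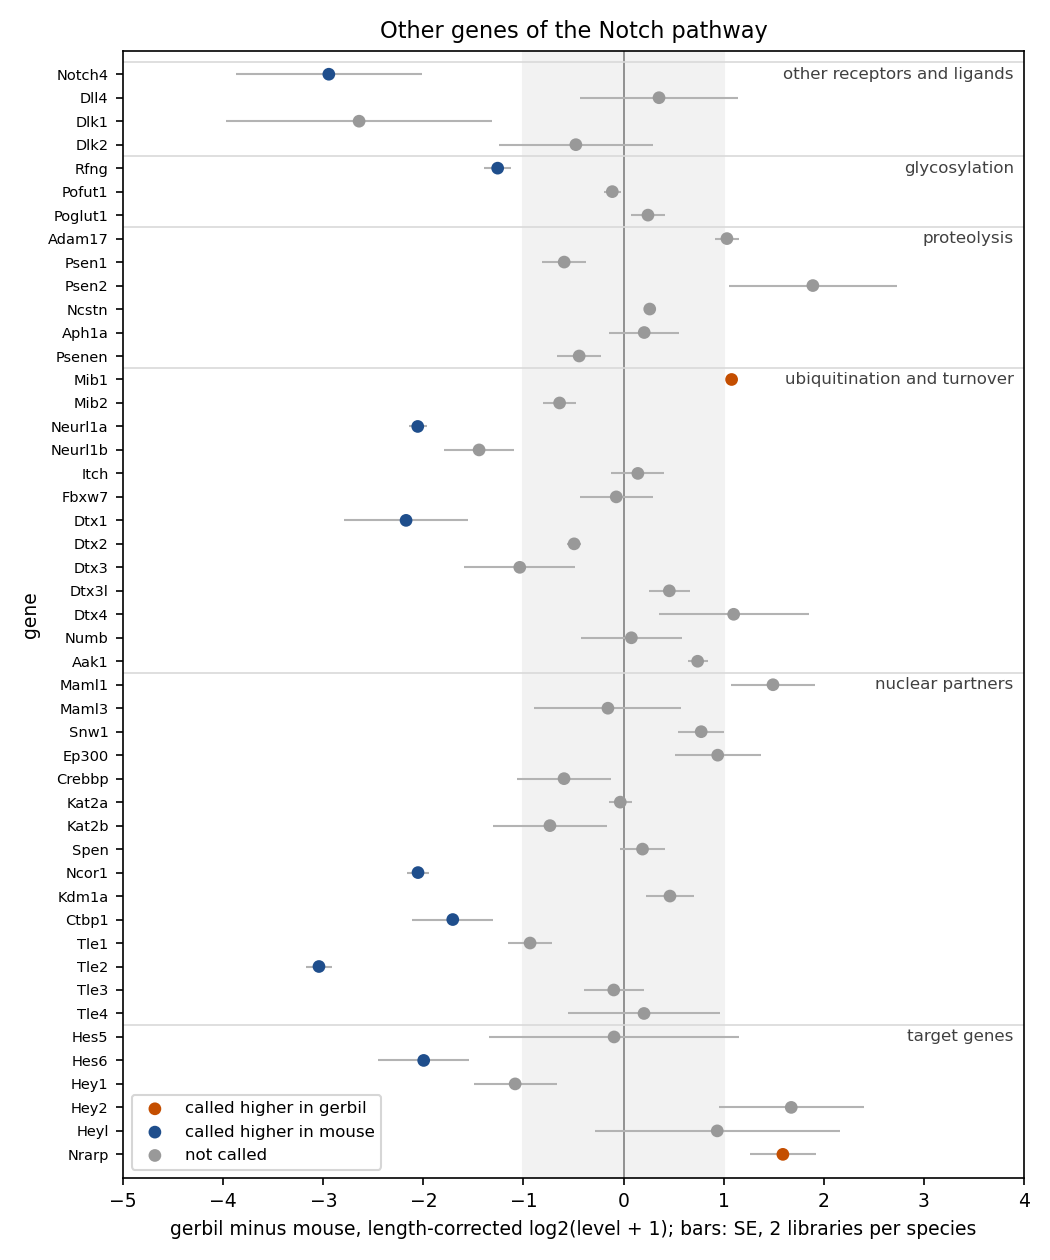
Gerbil minus mouse difference in length-corrected log2(level + 1) for the 47 other Notch pathway genes measured in both species, in 6 groups, with SE bars from 2 libraries per species. Colours mark the 2 genes called higher in gerbil (Mib1 and Nrarp) and the 8 called higher in mouse, among them Tle2 at -3.04, and the grey band marks differences of up to 2-fold.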

How the data were processed

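RNA was measured in 4 libraries of the enamel knot region, 2 from gerbil and 2 from mouse. The gerbil values are TPM per gene and the mouse values FPKM per assembled locus, both as deposited by the authors and named so per the file headers. Per the submitters' processing notes, cutadapt 2.8, STAR 2.7.1a and RSEM 1.3.1 were used, with roles not given, and GRCm38 and mm10 are the builds listed. Which genome the gerbil reads were aligned to is not stated in these notes. The gerbil table has 4 more columns of per-sample values, which were left unused. With no separate animals stated, the spread between libraries may be technical.

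Genes were matched by symbols that occur once in each table, without LOC, Gm and Rik names, and values were rescaled to sum to 1000000 per library over those genes. Of 13140 matched genes with a mouse Ensembl ID, 13128 had the same symbol in GENCODE M21. Log2(level + 1) was taken, genes averaging 1 or more were kept, and each library's median deviation from the gene mean in 40 bins of exon-union length (GENCODE M21 basic) was interpolated and removed. The procedure was tested on simulated data. GC content was that of the longest transcript. The design assumed a count model where both tables held counts. As they hold TPM and FPKM, the 2-fold rule fixed beside it was used.

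The genes named are the 10 members, every called gene of the other pathway list, the 4 most abundant uncalled ones, and the 3 nearest patterns of each called member. In addition, Hes5, Hey1, Hey2, Heyl, Maml1, Ep300, Crebbp, Tle3, Tle4 and Spen were chosen after their values were seen. One gene of the pathway list is not reported here, and the counts of the list leave it out. The members and lists were chosen with earlier results of these data known. Calculations used Python 3.11.15, numpy 2.4.6 and pandas 2.3.3.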

Additional observations from a re-analysis of the deposited data

How the results depend on the processing

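The alternatives were a pseudocount of 0.1, no filter on low values, a minimum of 10 in each species, no length correction, neither centring nor correction, GC also removed, and each library left out. A trend in 20 bins or over the genes nearest in length was added after the data were seen and changed none of the counts of calls. The ratios on the corrected scales were also chosen after the data were seen. As a call compares the nearest libraries, leaving a library out can hardly end one and is no check of it. The number of Notch genes called higher in gerbil, 2, became 1 with a pseudocount of 0.1 and 4 with neither centring nor correction. It became 3 with no filter, with the minimum of 10 and without the length correction, and stayed at 2 with GC also removed. With a library left out it ranged from 2 to 4 (4 without mouse PEK). The number called higher in mouse, 1, became 0 with the minimum of 10, which drops Mfng, and 2 without the length correction, and ranged from 1 to 2 with a library left out (2 without gerbil E21 or mouse SEK). Shares of all measured genes called were computed only with and without the length correction, so the other counts have no background beside them. The median of -0.11 became 0.83 without the length correction and 1.47 with neither, beside -0.01 and 0.62 over all measured genes. It was 0.44 with GC also removed and 0.09 with the minimum of 10. It was -0.20 with a pseudocount of 0.1 and -0.003 with no filter. With a library left out the median ranged from -0.31 to 0.38, above 0 without gerbil E23 (0.29) or mouse PEK.

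For the 47 other pathway genes, the 2 called higher in gerbil became 1 (pseudocount of 0.1), 3 (GC also removed), 4 (no filter), 9 (no length correction) and 12 (neither). With a library left out they became 3 to 6 (5 without gerbil E23 or mouse SEK, 6 without mouse PEK). The 8 called higher in mouse became 7 (no filter), 4 (minimum of 10), 5 (no length correction), 4 (neither) and 3 (GC also removed). They became 9 to 11 with a library left out. The minimum of 10 kept 34 of the 47 genes and dropped Notch4, Neurl1a, Dtx1 and Tle2, so their calls were lost to the filter. Only the counts with and without the length correction have a background share. With neither centring nor correction, Ncor1 (0.21) changed sign. The log2 difference of ratios moved for Hes1 to Rbpj (-5.19) to -2.40 with length and -2.04 with length and GC removed, for Dll1 to Jag1 (-1.32) to -0.53 and -0.029, and for Jag2 to Jag1 (-2.60) to -0.87 with both removed. The cause was not tested. Ratios from another gerbil unit were not run. No paired analysis was possible because the columns carry no replicate number. With no depth, the precision of low values such as Mfng in gerbil is unknown.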
